A study of Mus musculus with 39 samples.

Results

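The 32 microglia genes were read in bulk RNA sequencing of mouse basolateral amygdala (BLA) and nucleus accumbens (NAc). They are a list of known microglial symbols, for which the rule of membership uses no value measured here, and were found by matching each Ensembl identifier, without its version, to a mouse symbol. All 32 were matched, among 51826 gene identifiers in each file; Spi1 carries its older name Sfpi1 in the annotation. The series compared mice heterozygous for a gene-trap allele of Lmo4 (Lmo4gt/+) with wild-type (WT) mice to look for genes under the control of LMO4, a transcription cofactor studied for alcohol drinking and reward. NAc libraries came from 9 Lmo4gt/+ and 10 WT mice, and BLA libraries from 9 Lmo4gt/+ and 11 WT mice. All mice were C57BL/6J, aged 8 to 12 weeks, and no treatment is named for any of them. The trap is a germline allele, so microglia and every other cell of a mutant carried it, and the sources used here do not say where in the gene it sits. Each library is 1 punch from frozen sections of 300 µm, which holds neurons, glia and vessels, and 19 of the 20 mice gave both regions.

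Microglia are the resident macrophages of the brain. They depend on the receptor CSF1R for survival, read the state of neurons through CX3CR1 (the fractalkine receptor) and P2RY12 (a nucleotide receptor), and make C1q, the recognition molecule of the classical complement pathway, which can mark synapses for removal. TREM2 and the Fc receptors signal through the adaptors TYROBP and FCER1G, and the transcription factors PU.1 (Spi1) and IRF8 keep the lineage. In punches of whole tissue, fewer microglia and less RNA per microglial cell cannot be told apart.

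The libraries held 21255934 to 51021670 reads in genes, of which 7929 to 22787 (median 12864) fell in the 32 genes, so their share was 0.0373% to 0.0584%. Lmo4 averaged 54.0 ± 8.89 CPM (TMM-normalised reads per 1000000 gene reads; ± is the SD over libraries) in Lmo4gt/+ NAc and 86.5 ± 11.8 CPM in WT NAc, and 91.4 ± 12.9 CPM in Lmo4gt/+ BLA and 165 ± 9.55 CPM in WT BLA, lower in the mutants of both regions (edgeR adjusted p of 0.00214 and 2.82e-09). The NAc library of mouse 122 is titled as a mutant but has WT in its genotype field, and was kept as a mutant. Some libraries stood apart. Summed glutamatergic neuron markers reached 1210 CPM in the NAc library of mouse 134 and 740 CPM in that of mouse 122, against medians of 13.8 CPM in Lmo4gt/+ NAc and 35.2 CPM in WT NAc. Summed medium spiny neuron markers reached 1170 and 1160 CPM in the BLA libraries of mice 159 and 129, against medians of 575 CPM in Lmo4gt/+ BLA and 640 CPM in WT BLA, and choroid plexus and ependymal markers reached 651 CPM in the BLA library of mouse 127. The NAc library of mouse 149 had the fewest gene reads and the highest share of reads not assigned to a gene (38.06%).

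The 32 genes were detected in every library, from Spi1 with 18 to 113 reads per library to Csf1r with 1839 to 4305. Per kilobase of exon, Ctss, the lysosomal protease cathepsin S, was highest at 19.6 ± 3.43 CPM per kb (mean ± SD, n = 39 libraries). Csf1r followed with 16.3 ± 1.35, then the complement genes C1qb with 15.6 ± 2.89 and C1qa with 15.2 ± 3.09 CPM per kb, Cx3cr1 with 11.5 ± 1.53 and P2ry12 with 8.81 ± 1.23. At the low end stood the integrin subunit Itgam (CD11b) with 0.859 ± 0.174 and the transcription factors Irf8 with 0.677 ± 0.136 and Spi1 with 0.67 ± 0.22 CPM per kb. Of the 31 steps between neighbours in this order, 26 were no larger than 1 SD between libraries. The 5 larger steps lay below C1qa, Cx3cr1, Olfml3, Csf3r and Itgam. This SD is the spread of single libraries and not the error of a mean, so the order itself was not tested. Over all libraries, regions pooled, Csf1r had the lowest coefficient of variation (8.29%) and Ptprc the highest (81.8%). Within a region the lowest was that of Csf1r in both (10.8% in the NAc and 4.13% in the BLA), and the highest was that of Spi1 in the NAc (40.6%, Ptprc 23.6%) and of Ptprc in the BLA (29.7%). Within groups the median coefficient of variation over the 32 genes was 21.5% in Lmo4gt/+ NAc, 17.9% in WT NAc, 14.3% in Lmo4gt/+ BLA and 14.7% in WT BLA.

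**Figure D1:**
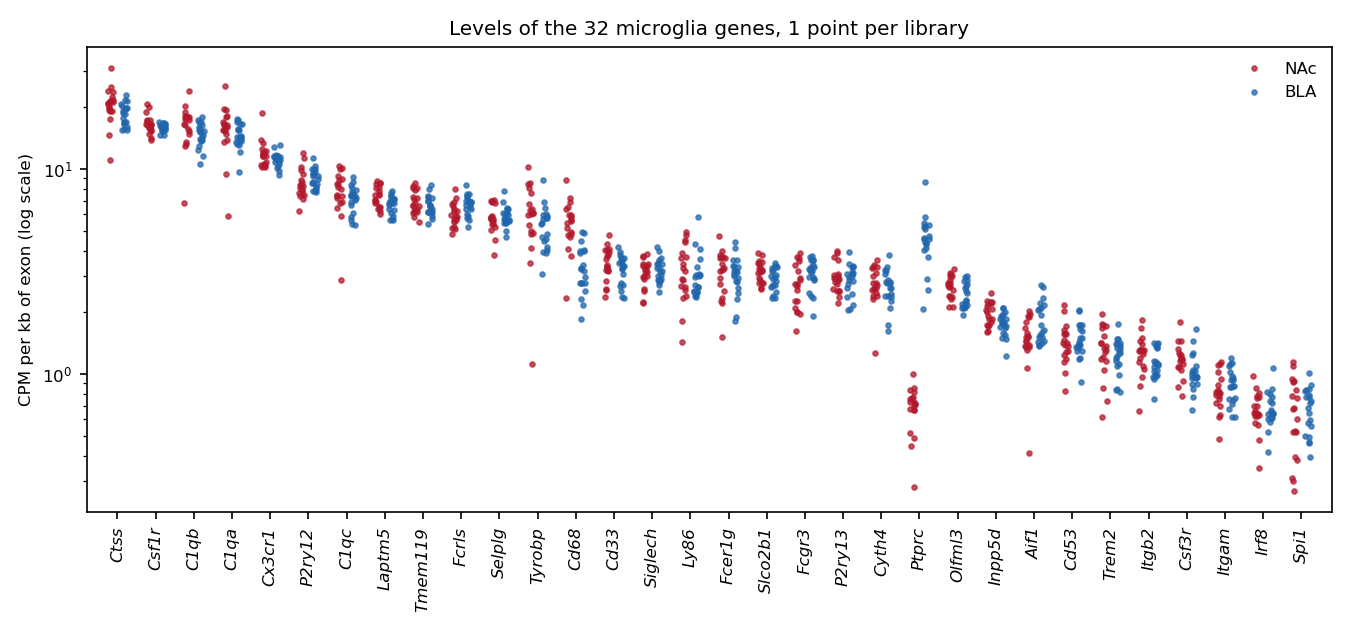
Levels of the 32 genes in CPM per kb of exon on a log axis, ordered by the mean over 39 libraries; each point is 1 library, NAc in red left of BLA in blue. Ctss leads at 19.6 CPM per kb, Spi1 is last at 0.67, and Ptprc is the gene whose NAc and BLA points do not overlap.

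The defining markers of monocytes, neutrophils, T cells and killer cells were at or near 0. The 12 monocyte and neutrophil markers summed to 0 to 0.45 CPM per library in Lmo4gt/+ NAc, 0 to 0.421 in WT NAc, 0.0378 to 0.581 in Lmo4gt/+ BLA and 0 to 0.438 in WT BLA, and none of the 12 had enough reads to be tested. The monocyte receptor gene Ccr2 had 20 reads over all Lmo4gt/+ NAc libraries, 23 in WT NAc, 50 in Lmo4gt/+ BLA and 20 in WT BLA. The T cell gene Cd3e had 2 reads over all Lmo4gt/+ NAc libraries, 13 in WT NAc, 2 in Lmo4gt/+ BLA and 20 in WT BLA, and Nkg7, a gene of killer cells, had none in any library. Markers of macrophages at the brain's borders were present. Among them Mrc1, the mannose receptor, had medians of 0.393 CPM in Lmo4gt/+ NAc, 0.746 in WT NAc, 0.473 in Lmo4gt/+ BLA and 0.458 in WT BLA. Cx3cr1 had medians of 41.8 to 43.9 CPM in the same groups. The sum of the 10 border macrophage markers was 14.9 to 21.7 CPM in Lmo4gt/+ NAc, 14.8 to 28 in WT NAc, 13 to 19.5 in Lmo4gt/+ BLA and 12.1 to 21.3 in WT BLA. Markers other than Mrc1 made up most of this sum. Of the 10, 6 averaged under 0.1 CPM in Lmo4gt/+ NAc, 3 in WT NAc and 5 in each BLA group. Red cell markers summed to 6.95 to 50.6 CPM, and the lymphocyte list held Cd4, which reached 49.4 CPM in the NAc and is given with Ptprc. Their part in the levels of the 32 genes was not tested.

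Between the regions, the microglia genes differed little in comparison with the rest of the transcriptome, with 1 large exception. In Lmo4gt/+ mice, NAc over BLA with the mouse as a block, 1 of the 32 was higher in NAc and 2 were lower, 9.38% of the list, against 52.7% of the 17026 genes tested (edgeR, adjusted p under 0.05). In WT mice 7 were higher and 1 was lower, 25% of the list, against 59.6% of 16887 genes. The median size of the log2 difference was 0.09 over the 32 genes in Lmo4gt/+ mice, against 0.34 over all genes tested, and 0.12 against 0.32 in WT mice. The difference was under 1.25-fold for 28 of the 32 in Lmo4gt/+ mice and 30 of the 32 in WT mice, as it was for 48.1% and 50.1% of all genes tested. Summed over the 31 genes other than Ptprc, the level was 366 to 464 CPM (median 427) in Lmo4gt/+ NAc and 392 to 429 CPM (414) in Lmo4gt/+ BLA, and 404 to 529 CPM (430) in WT NAc and 363 to 448 CPM (417) in WT BLA, so the regions overlapped. Over the same libraries all 11 oligodendrocyte markers were higher in NAc, with a median log2 difference of 1.41 in Lmo4gt/+ and 1.54 in WT mice. The comparisons in the 2 genotypes share no mouse; Cd68 was higher and Ptprc lower in both.

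**Figure D2:**
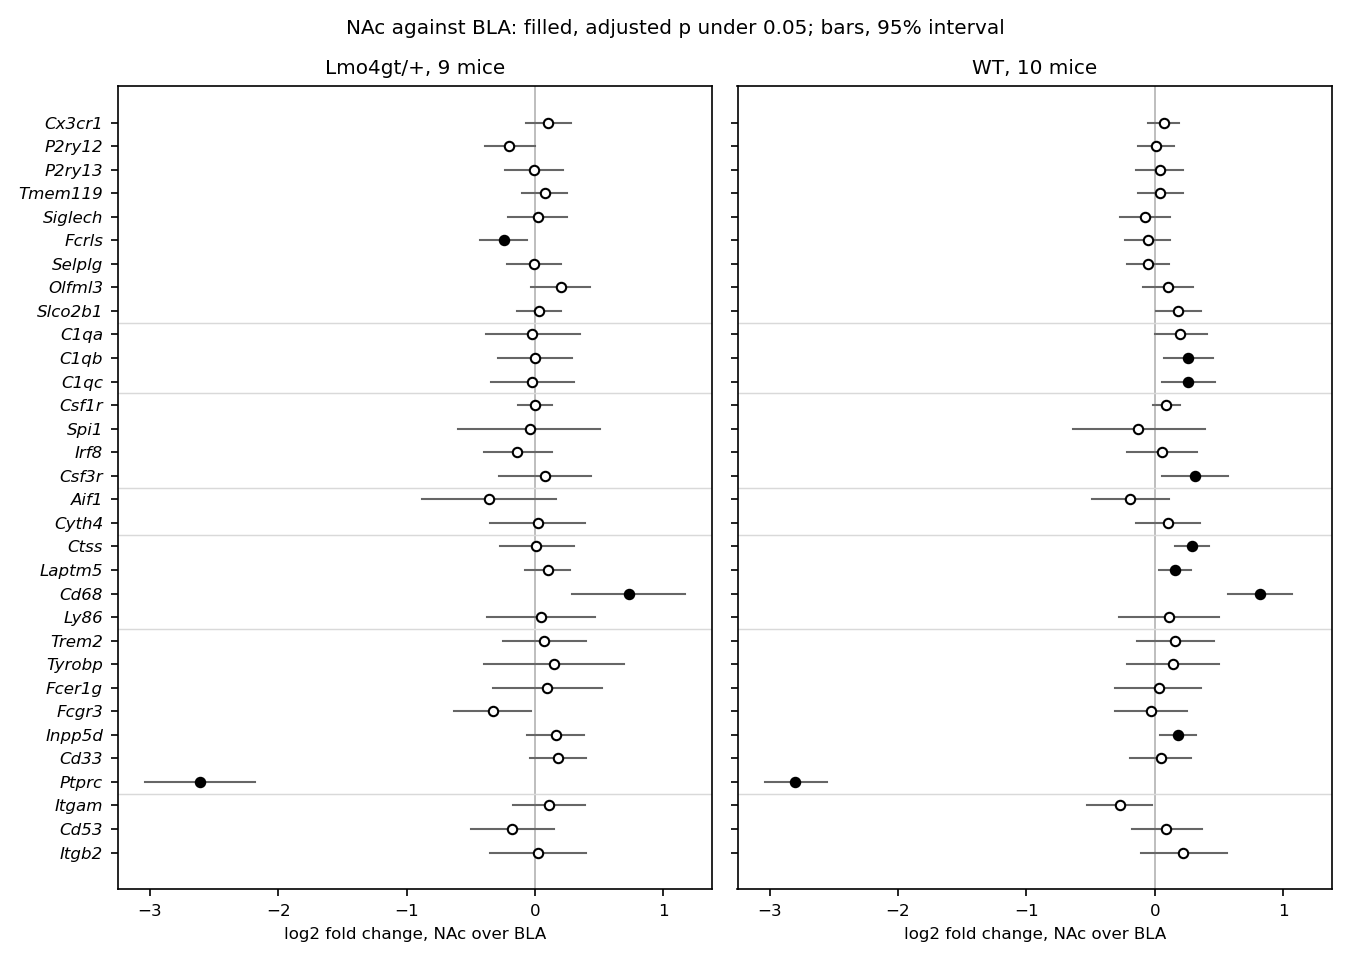
Log2 fold change of NAc over BLA for the 32 genes, by role (grey lines part the roles), in 9 Lmo4gt/+ mice (left) and 10 WT mice (right); bars are 95% intervals and filled points passed an adjusted p of 0.05. Ptprc stands alone at -2.61 and -2.80, Cd68 is highest at 0.73 and 0.82, and the rest lie near 0.

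Ptprc encodes CD45, the receptor tyrosine phosphatase carried by leukocytes and, at a low level, by microglia (ENSMUSG00000026395.16, chr1:139959438-140071882, minus strand, NCBIM37). It had 1.63 to 4.73 CPM (median 4.13) in the NAc of Lmo4gt/+ mice, against 12.0 to 34 CPM (26.4) in their BLA. In WT mice it had 2.60 to 5.83 CPM (median 4.24) in the NAc, against 21.7 to 50.3 CPM (26.5) in the BLA. The regions did not overlap in either genotype, and the NAc level was lower than the BLA level in 9 of 9 Lmo4gt/+ and 10 of 10 WT mice, at 0.0552 to 0.301 and 0.0843 to 0.19 of it. The log2 fold change was -2.61 ± 0.20 (SE) in Lmo4gt/+ mice (edgeR adjusted p = 1.18e-07) and -2.80 ± 0.11 in WT mice (adjusted p = 3.98e-11), that is 6.11-fold and 6.95-fold lower in NAc. The lowest BLA values, 12.0, 14.9 and 16.8 CPM, were those of mutant mice 159, 122 and 147, and the highest was that of WT mouse 139. The BLA library of mouse 159 was also the one with the most medium spiny neuron RNA in its group (1170 CPM). That of WT mouse 129 had 1160 CPM of the same markers and 26.8 CPM of Ptprc, near the WT BLA median.

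Across libraries, with the genotype means removed, Ptprc had a Pearson's r of 0.31 with the mean of the other 31 genes in the NAc and -0.18 in the BLA; the NAc value was -0.05 without the libraries of mice 129 and 149. The genes whose levels followed it most closely in the 20 BLA libraries, chosen after their values were seen from all named genes tested, were C1ql3, a secreted synaptic organiser of the C1q-like family (r = 0.90), the transcription factor Etv1 (0.86), the prohormone convertase Pcsk1 (0.85), Creb3l1 (0.85) and the cannabinoid receptor Cnr1 (0.84). In the 19 NAc libraries the same 5 genes had r of -0.12, -0.33, -0.06, -0.37 and -0.24 with Ptprc. In the NAc the closest were Ccdc34 (r = 0.90), Trmu (0.85), Plekhn1 (0.84), Blm (0.83) and Atp5sl (0.83), with r of -0.53 to 0.26 in the BLA. Each of the 5 genes closest in the BLA was also lower in NAc than in BLA, from -1.16 ± 0.18 for Creb3l1 to -6.01 ± 0.38 for C1ql3 (log2, Lmo4gt/+ mice, edgeR adjusted p of 5.43e-05 and 7.15e-07) and from -1.46 ± 0.16 to -6.13 ± 0.35 in WT mice (5.5e-07 and 1.87e-07). Of all genes tested, 26.4% in Lmo4gt/+ and 28.5% in WT mice were called lower in NAc. None of the 5 closest in the NAc was called lower in either genotype. In Lmo4gt/+ and WT mice, Ccdc34 had -0.11 ± 0.11 and 0.04 ± 0.08, Blm -0.27 ± 0.14 and 0.06 ± 0.14, and Atp5sl -0.07 ± 0.09 and -0.06 ± 0.05. Trmu had 0.25 ± 0.15 in Lmo4gt/+ mice (edgeR adjusted p = 0.189) and was called higher in WT NAc, at 0.24 ± 0.08 (0.0116). Plekhn1 was called higher in NAc in both genotypes, at 0.40 ± 0.10 (0.00298) and 0.56 ± 0.05 (2.77e-08). Of the 12 lymphocyte markers only Cd4 was abundant enough to be tested, and it was higher in NAc (log2 5.09 ± 0.67 in Lmo4gt/+ and 4.47 ± 0.54 in WT mice, edgeR adjusted p of 0.000173 and 5.1e-05), at 17.7 to 49.4 CPM in Lmo4gt/+ NAc and 0 to 4.37 CPM in Lmo4gt/+ BLA, and 14.1 to 43.1 CPM in WT NAc and 0.331 to 5.62 CPM in WT BLA. The NAc libraries of mice 134 and 122, which had the most glutamatergic neuron RNA, had 2.84 and 4.5 CPM of Ptprc, within the range of the other NAc libraries. The part of neuronal RNA in the Ptprc difference was not tested. The nearest neighbour tested on the chromosome, Nek7, lies 309409 bases away and had a log2 difference of -0.26 ± 0.07 in Lmo4gt/+ mice (adjusted p = 0.00562) and -0.12 ± 0.05 in WT mice (0.0689). The next, the transcription factor gene Lhx9, 649881 bases away, was lower in NAc, at -3.12 ± 0.53 (adjusted p = 0.000145) and -5.11 ± 0.65 (7.1e-06).

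Cd68, a glycoprotein of lysosomes and a common marker of phagocytic macrophages (ENSMUSG00000018774.13, chr11:69477715-69479655, minus strand, NCBIM37), was higher in NAc. It had 2.95 to 11.1 CPM (median 7.05) in the NAc of Lmo4gt/+ mice, against 2.34 to 5.03 CPM (4.09) in their BLA. In WT mice it had 4.75 to 9.10 CPM (median 6.91) in the NAc, against 2.71 to 6.22 CPM (3.73) in the BLA. The groups overlapped, but within a mouse the NAc level was the higher in 8 of 9 Lmo4gt/+ and 10 of 10 WT mice; the exception was mouse 149, at 0.59 of its BLA level. The log2 fold change was 0.73 ± 0.21 in Lmo4gt/+ mice (edgeR adjusted p = 0.00738) and 0.82 ± 0.12 in WT mice (adjusted p = 1.76e-05). The gene lies 783 bases from Eif4a1 on the same strand, and Eif4a1 had -0.17 ± 0.06 in Lmo4gt/+ and -0.10 ± 0.04 in WT mice. In the NAc, the named genes closest to Cd68, chosen after their values were seen, were Crabp1 (r = 0.90), Tmem91 (0.89), Actl6b (0.88) and Chat, the acetylcholine synthesis enzyme (0.87), and in the BLA the same genes had r of 0.38, 0.23, -0.04 and -0.03 with it. In Lmo4gt/+ and WT mice, Crabp1 was 3.65-fold and 4.21-fold higher in NAc, Tmem91 3.75-fold and 2.6-fold and Chat 66.6-fold and 36-fold. Actl6b had 1.08-fold (edgeR adjusted p = 0.172) and 1.13-fold (0.00235). In the BLA the closest to Cd68 were Eral1 (r = 0.79), Zfp81 (0.77), Ddx52 (0.76), Parl (0.74) and Mcm4 (0.73). Parl was 1.23-fold and 1.18-fold higher in NAc in Lmo4gt/+ and WT mice, and Mcm4 1.38-fold and 1.39-fold. Eral1 (1.01-fold and 1.08-fold), Zfp81 (1.07-fold and 1.02-fold) and Ddx52 (1.02-fold and 0.997-fold) were not called. Of all genes tested, 26.2% in Lmo4gt/+ and 31.1% in WT mice were called higher in NAc. The part of neuronal RNA in the Cd68 difference was not tested.

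**Figure D3:**
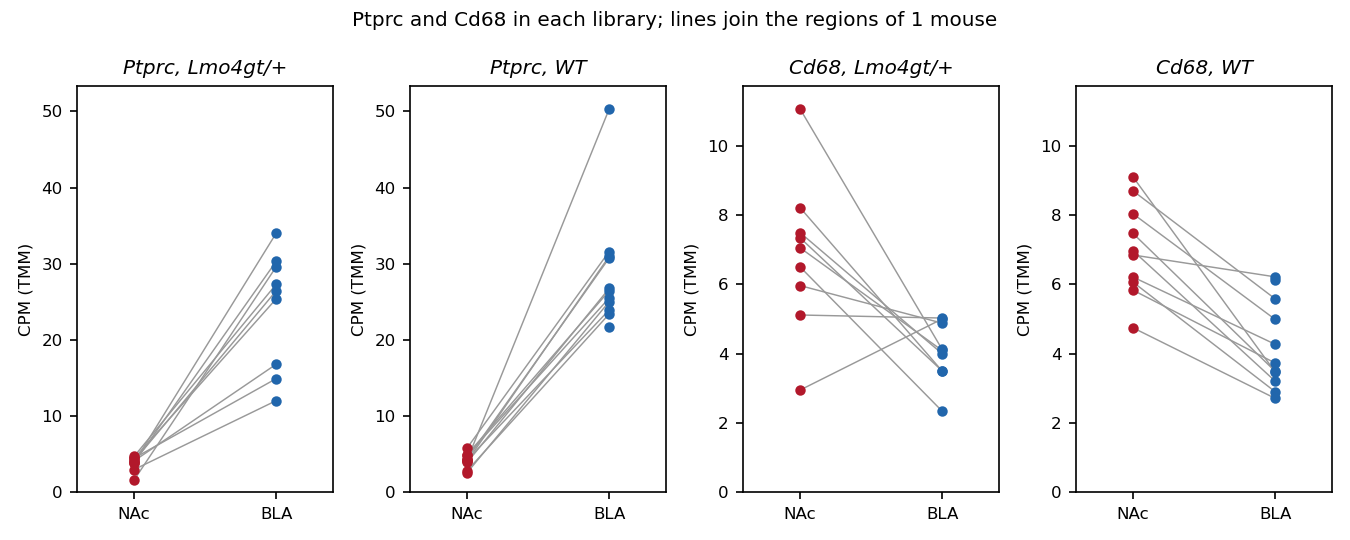
Ptprc (left pair) and Cd68 (right pair) in CPM in each library of Lmo4gt/+ and WT mice, NAc left of BLA, with lines joining the regions of 1 mouse. Ptprc is at most 5.83 CPM in NAc and at least 12.0 CPM in BLA, so every line climbs toward BLA, whereas all Cd68 lines but that of mouse 149 descend.

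Promoters are shown from RefSeq (GRCm38.p6), 250 bases before the start site, 5′ to 3′ on the gene's strand: first those of Ctss, C1qb, C1qc and P2ry12, which followed the rest of the list most closely across libraries among the genes with a promoter, then those of Ptprc and Cd68. A RefSeq promoter was found for 25 of the 32 genes. Capitals mark GAGGAA, the core letters bound by PU.1, or its complement TTCCTC where the match is on the other strand. Ctss (chr3:95526536-95526785, plus strand) holds it at -164 to -159, C1qb (chr4:136886201-136886450, minus strand) at -30 to -25, C1qc (chr4:136892915-136893164, minus strand) at -193 to -188 on the other strand, and P2ry12 (chr3:59262986-59263235, minus strand) does not hold it.
Ctss: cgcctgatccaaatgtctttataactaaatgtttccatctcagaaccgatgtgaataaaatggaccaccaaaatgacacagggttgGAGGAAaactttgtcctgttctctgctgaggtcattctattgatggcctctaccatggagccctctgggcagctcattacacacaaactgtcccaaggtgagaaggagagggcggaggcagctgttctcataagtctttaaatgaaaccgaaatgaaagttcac
C1qb: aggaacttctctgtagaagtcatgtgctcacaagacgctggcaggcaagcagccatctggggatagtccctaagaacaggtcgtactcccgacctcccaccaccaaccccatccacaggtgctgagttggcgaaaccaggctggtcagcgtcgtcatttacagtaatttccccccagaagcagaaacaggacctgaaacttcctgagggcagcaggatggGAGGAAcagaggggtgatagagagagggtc
C1qc: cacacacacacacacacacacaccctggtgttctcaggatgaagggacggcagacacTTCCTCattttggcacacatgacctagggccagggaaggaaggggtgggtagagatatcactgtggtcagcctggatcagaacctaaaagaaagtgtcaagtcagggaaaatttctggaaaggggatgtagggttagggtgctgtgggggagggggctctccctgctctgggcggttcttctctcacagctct
P2ry12: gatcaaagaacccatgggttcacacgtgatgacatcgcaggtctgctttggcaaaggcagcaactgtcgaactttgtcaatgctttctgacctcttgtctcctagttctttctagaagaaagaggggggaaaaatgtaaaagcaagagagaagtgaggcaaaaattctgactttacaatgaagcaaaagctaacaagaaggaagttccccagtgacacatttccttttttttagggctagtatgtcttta

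Ptprc and Cd68, whose levels differed between the regions in opposite directions, each hold GAGGAA as well: Ptprc (chr1:138175306-138175555, minus strand, the upstream of its 2 promoters in the table; the other, which overlaps it, has no match) at -158 to -153, and Cd68 (chr11:69666171-69666420, minus strand) at -225 to -220.
Ptprc: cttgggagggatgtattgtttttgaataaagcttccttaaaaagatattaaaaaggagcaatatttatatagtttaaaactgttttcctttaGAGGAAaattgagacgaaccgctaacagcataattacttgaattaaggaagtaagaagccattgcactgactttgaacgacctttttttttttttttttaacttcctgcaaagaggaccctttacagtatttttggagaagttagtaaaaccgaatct
Cd68: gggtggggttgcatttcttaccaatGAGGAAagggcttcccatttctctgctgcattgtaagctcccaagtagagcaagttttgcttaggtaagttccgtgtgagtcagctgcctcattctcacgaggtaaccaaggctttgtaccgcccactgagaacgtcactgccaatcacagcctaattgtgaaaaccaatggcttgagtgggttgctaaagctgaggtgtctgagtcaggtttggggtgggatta

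Searched on both strands, GAGGAA was in 17 of the 25 genes with a promoter (68%) and in 60% of their 30 promoters, against 23.3% of all 32851 promoters of the same length. The composite motif of PU.1 with an IRF factor, which may share bases with GAGGAA, was in 0 of the 30 and in 2.3% of all promoters. A match describes letters in this window and is not a shown binding site.

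The other region calls were under 1.25-fold and each was made in 1 genotype; the test of genotype by region called none of them. Among the complement genes, C1qb and C1qc were higher in WT NAc. C1qb had 14.1 to 26 CPM (median 18.4) in WT NAc, against 11.5 to 19.4 CPM (16) in WT BLA, a log2 fold change of 0.26 ± 0.09 (edgeR adjusted p = 0.02). C1qc had 12.5 to 19.5 CPM (15) in WT NAc, against 10.3 to 17.7 CPM (14.3) in WT BLA, and a fold change of 0.26 ± 0.10 (adjusted p = 0.029); C1qa, the remaining subunit, had 0.20 ± 0.10 and did not pass (adjusted p = 0.0856). In Lmo4gt/+ mice the values were -0.02 ± 0.17, 0.00 ± 0.14 and -0.02 ± 0.15 for C1qa, C1qb and C1qc. Without mouse 149, whose NAc levels of these genes were 0.377, 0.476 and 0.386 of its BLA levels, the values were 0.14, 0.13 and 0.13, and none passed (adjusted p of 0.33, 0.247 and 0.244). All of these C1q ranges overlapped between the regions.

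Among the lysosomal genes, Ctss was higher in WT NAc, with 25.9 to 42.1 CPM (median 29.2) against 21 to 31.1 CPM (25.3) in WT BLA, in 10 of 10 mice (0.29 ± 0.06, edgeR adjusted p = 0.000695), and Laptm5, a lysosomal membrane protein of blood cells, had 0.16 ± 0.06 (adjusted p = 0.0305). The phosphatase gene Inpp5d (SHIP1), which restrains signalling below immune receptors, had 0.18 ± 0.06 (adjusted p = 0.023). Csf3r, the receptor for granulocyte colony-stimulating factor, had 0.31 ± 0.12 (adjusted p = 0.0354) and was higher in 9 of 10 mice. In Lmo4gt/+ mice these 4 had 0.01 ± 0.13, 0.10 ± 0.08, 0.16 ± 0.10 and 0.08 ± 0.17 (adjusted p of 0.952, 0.353, 0.211 and 0.716), and 0.13, 0.09, 0.16 and 0.16 without mouse 149. In WT mice Csf3r, Inpp5d and Laptm5 did not pass with no filter on low counts, nor did Inpp5d and Laptm5 with DESeq2, nor Laptm5 with DESeq2 size factors (adjusted p = 0.0534). Without mouse 129 the WT calls of C1qb, C1qc, Csf3r, Inpp5d and Laptm5 were lost and those of Cd68, Ctss and Ptprc were kept. The lost ones had 0.18, 0.17, 0.21, 0.16 and 0.11 (adjusted p of 0.0764, 0.10, 0.119, 0.0623 and 0.125). Itgam then passed as lower in NAc (-0.33, adjusted p = 0.0405, against -0.27 and 0.0599 with all mice). The NAc library of mouse 129 held 30 of the 32 genes above the WT mean, and the share over all genes was not taken.

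In Lmo4gt/+ mice Fcrls, an Fc receptor-like gene used to tell microglia from other macrophages in mice, was lower in NAc. It had 11.3 to 18.6 CPM (median 13.4) in Lmo4gt/+ NAc, against 14 to 19.5 CPM (16) in Lmo4gt/+ BLA, and was lower in 8 of 9 mice (-0.24 ± 0.09, edgeR adjusted p = 0.0288), a call that did not hold with no filter on low counts (-0.25, adjusted p = 0.0556). In WT mice it had -0.05 ± 0.08 (adjusted p = 0.578). The Fc receptor gene Fcgr3, whose sequence is close to that of other Fc gamma receptors and whose count is uncertain for that reason, had -0.33 ± 0.14 (adjusted p = 0.0599), and P2ry12 -0.20 ± 0.09 (adjusted p = 0.0837); neither passed. Among the other surface genes the homeostatic markers Cx3cr1, Tmem119, P2ry13, Siglech, Selplg, Olfml3 and Slco2b1 lay between -0.01 and 0.20 in Lmo4gt/+ and between -0.08 and 0.18 in WT mice, and none passed. Csf1r, the survival receptor, had 72.1 to 108 CPM in Lmo4gt/+ NAc and 76.3 to 87.9 in Lmo4gt/+ BLA, with a log2 difference of 0.00 (95% interval -0.13 to 0.13), and 0.09 (-0.01 to 0.20) in WT mice. P2ry12 and P2ry13 lie within Med12l on the opposite strand, and Csf1r overlaps Hmgxb3; whether counting used strand is not given in the sources used here, so reads of these partners could enter their counts.

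With genotype, none of the 32 genes passed in either region. In the NAc 0 of 32 were called against 0.00588% of the 16999 genes tested, which is Lmo4 alone, and in the BLA 0 of 32 against 0.00585% of 17087, again Lmo4 alone (edgeR, adjusted p under 0.05). DESeq2 also called none of the 32 in either region. At an unadjusted p under 0.05 there were 0 of 32 in the NAc (2.67% of all genes tested) and 1 of 32 in the BLA (4.11% of all genes). The median log2 fold change, Lmo4gt/+ over WT, was -0.07 in the NAc, against 0.00 over all genes tested, with 5 of the 32 above 0; it was 0.02 in the BLA, against -0.00, with 19 above 0. The NAc median was -0.04 without the library of mouse 149 and -0.04 without that of mouse 129. The 95% interval lay within 1.5-fold for 30 of the 32 genes in the NAc (73.3% of all genes tested) and 31 of the 32 in the BLA (77.1%). It lay within 2-fold for all 32 in both (89.4% and 92% of all genes tested).

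The BLA gene with the smallest p was Itgam, the alpha chain of complement receptor CR3. It had 3.92 to 6.25 CPM (median 4.82) in Lmo4gt/+ BLA, against 4.57 to 7.64 CPM (6.12) in WT BLA, and the ranges overlapped (log2 fold change -0.36 ± 0.11, p = 0.00222, edgeR adjusted p = 0.998). Itgb2, the chain that pairs with it in CR3, had 0.19 ± 0.12. The next were the lectin Siglech (-0.14 ± 0.08), Selplg, a ligand of P-selectin (-0.12 ± 0.07), and the adaptor Fcer1g (-0.22 ± 0.16), all at the same adjusted p. In the NAc the smallest p was that of Ctss, at 15.1 to 34.2 CPM (median 27.1) in Lmo4gt/+ NAc and 25.9 to 42.1 CPM (29.2) in WT NAc (-0.23 ± 0.12, adjusted p = 1). Csf3r had -0.21 ± 0.13, Irf8 -0.22 ± 0.14, P2ry12 -0.15 ± 0.10 and the tetraspanin Cd53 -0.19 ± 0.15, and none passed. Ptprc had -0.13 ± 0.17 in the NAc and -0.25 ± 0.19 in the BLA, and Cd68 -0.02 ± 0.17 and -0.07 ± 0.16, none of them past the threshold.

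**Figure D4:**
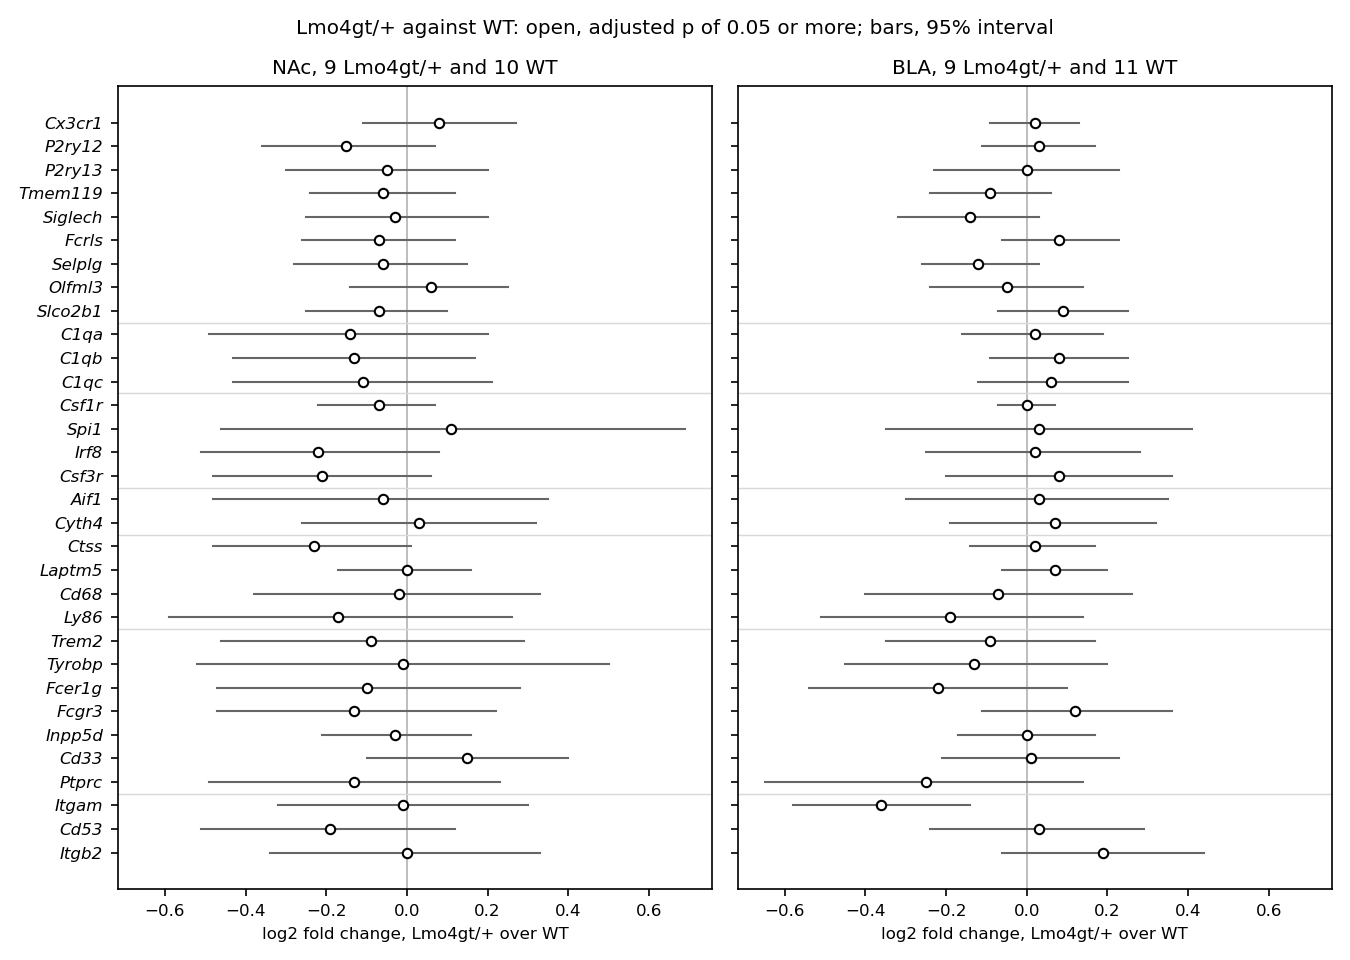
Log2 fold change of Lmo4gt/+ over WT for the 32 genes, by role (grey lines part the roles), in the NAc (left) and BLA (right); bars are 95% intervals, and every point is open because none passed an adjusted p of 0.05. The extremes are Itgam at -0.36 in the BLA and Ctss at -0.23 in the NAc.

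Whether the region difference depended on genotype was tested in the 38 libraries of the 19 mice with both regions. None of the 32 genes was called, nor was any of the 18325 genes tested (0.0%) by edgeR, and DESeq2 called none of the 32. At an unadjusted p under 0.05 there was 1 of the 32 and 2.96% of all genes. Values ran from -0.29 for Fcgr3 to 0.40 for Itgam (NAc minus BLA in Lmo4gt/+ minus the same in WT, log2). Itgam had 0.40 ± 0.18 (p = 0.0325, edgeR adjusted p = 1), after which came Ctss (-0.27 ± 0.15), P2ry12 (-0.19 ± 0.11), C1qb (-0.24 ± 0.16) and Fcgr3 (-0.29 ± 0.19). Without mouse 149 Ctss had -0.15 and C1qb -0.13, and without mice 122, 127, 129, 134, 149, 156 and 159 Fcgr3 had -0.57 (adjusted p = 0.927). For Ptprc the value was 0.20 (95% interval -0.28 to 0.68) and for Cd68 -0.07 (-0.57 to 0.42). The interval lay within 1.5-fold for 19 of the 32 genes, against 59.9% of all genes tested, and within 2-fold for all 32, against 73.4%.

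Across the libraries of a region, the genes of the list varied together only in part. Levels were log2 CPM with the genotype means removed. In the NAc the r of a gene with the mean of the other 31 had a median of 0.38 (-0.10 to 0.83, 19 libraries), against a median of 0.02 (-0.92 to 0.90) for all other genes with the mean of the 32. In the BLA the median was 0.18 (-0.22 to 0.67, 20 libraries), against 0.02 (-0.84 to 0.84). In both regions some genes outside the list thus had a higher r than any of the 32. The highest were Ctss (0.83), C1qa (0.82) and Trem2 (0.82) in the NAc, and C1qa (0.67), Ctss (0.63) and Csf1r (0.61) in the BLA. These points share library, depth and base composition, and the correlations over genes are given as a description.

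Among the pairs tested, those of the complement genes had the highest r. The C1q genes encode the A, B and C chains of 1 hexameric molecule and lie side by side on chromosome 4 (C1qb chr4:136436044-136442102, C1qc chr4:136445719-136448980 and C1qa chr4:136451832-136454718, all on the minus strand, NCBIM37). Of 12 gene pairs tested in each region, 24 relations in all, 7 passed by Pearson's r and 5 by Spearman's rho as well (permutation test of 100000 resamples within genotype, two-sided, Benjamini-Hochberg over the 24). In the NAc, C1qb and C1qc had r = 0.90 (rho 0.75, adjusted permutation p of 0.00168 and 0.00588). C1qa and C1qb had r = 0.87 (rho 0.77, 0.00336 and 0.00588), and C1qa and C1qc r = 0.86 (rho 0.75, 0.00372 and 0.00588). In the BLA, C1qb and C1qc had r = 0.73 (rho 0.71, adjusted permutation p of 0.003 and 0.00588) and C1qa and C1qb r = 0.67 (rho 0.68, 0.0124 and 0.00739), while C1qa and C1qc had r = 0.53 (rho 0.51) and did not pass (0.0678 and 0.108; without TMM scaling r was 0.58 and passed, 0.0304). Leaving out the 2 libraries farthest from the median of the first gene, the C1q r values were 0.61 to 0.69 in the NAc and 0.39 to 0.67 in the BLA.

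The other 2 pairs called were in the NAc and by r alone. The adaptor Tyrobp and its receptor Trem2 had r = 0.67 (adjusted permutation p = 0.0164) with rho 0.46 (0.168), and Cx3cr1 with Csf1r had r = 0.72 (0.0142) with rho 0.40 (0.199). Without the 2 libraries farthest from the median of the first gene, r was 0.31 and 0.36. Leaving out the extremes of a gene narrows its range and can lower r, so how far the relations rest on those libraries was not settled. The same pairs had r of 0.26 and 0.49 in the BLA. The CR3 chains Itgam and Itgb2 had r = 0.27 in the NAc and -0.29 in the BLA, and the transcription factors Spi1 and Irf8 0.12 and 0.24, none past the threshold. P2ry12 and P2ry13, neighbours on chromosome 3, had 0.34 and 0.38 and did not pass.

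**Figure D5:**
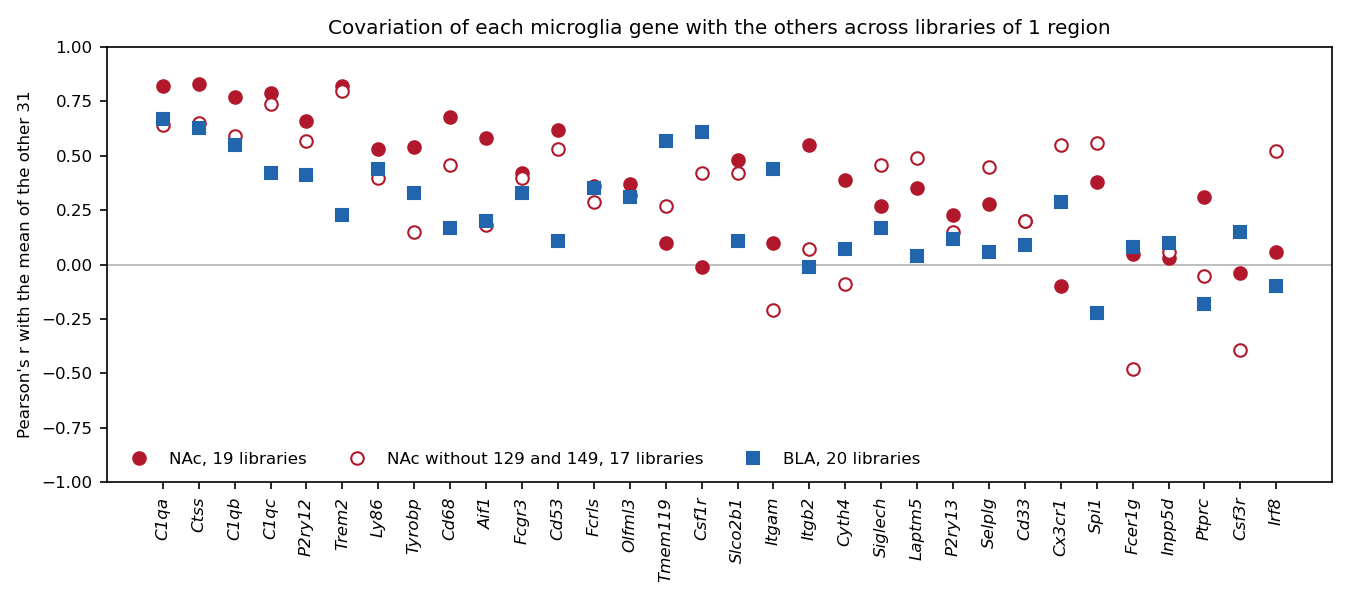
Pearson's r of each gene with the mean of the other 31, over NAc libraries (filled circles), NAc libraries without those of mice 129 and 149 (open circles) and BLA libraries (squares); genes run from the highest to the lowest mean of both regions. C1qa, Ctss, C1qb and C1qc lead, and Csf3r and Irf8 are last.

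The calls of NAc pairs were lost when 2 libraries were left out together, although the median r of a gene with the mean of the others was 0.41 without them. The NAc library of WT mouse 129 held 30 of the 32 genes above the WT mean, with a median deviation of 0.29 (log2). The share of all genes tested that lay above the mean there was not taken, so a rise particular to the list cannot be read from this count. The NAc library of mutant mouse 149 was low in the short genes of the list: its 7 genes of under 1500 exonic bases had a median deviation of -1.12, and the other genes 0.03. C1qa had 6.12 CPM and Tyrobp 0.633 CPM there, while the long Csf1r had 108 CPM and Cx3cr1 69.9 CPM, the highest of their group. Across genes within this library, the deviation went with log2 exonic length at r = 0.63 over the 32 genes and 0.28 over 15826 genes, as a description. Without both libraries, C1qb and C1qc had r = 0.65 in the NAc, C1qa and C1qc 0.56 and C1qa and C1qb 0.51, and no NAc pair passed (lowest adjusted permutation p = 0.0633); the BLA calls were kept. In a planned setting without NAc 122, 134 and 149 and BLA 127, 129, 149, 156 and 159, the NAc C1q pairs passed by r. There C1qa and C1qb had 0.67, C1qa and C1qc 0.63 and C1qb and C1qc 0.71 (adjusted permutation p of 0.036, 0.0443 and 0.0334). By rho only C1qb and C1qc passed in the NAc (0.0314). Tyrobp with Trem2 and Cx3cr1 with Csf1r did not pass there by r (0.222 and 0.127). The part of RNA quality or length in the covariation was not tested.

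By a rule that took named genes outside the list, the 10 whose levels followed the mean of the 32 genes most closely over both regions included Apoe (r = 0.90 in the NAc and 0.71 in the BLA), Rps2 (0.78 and 0.76), Fis1, Vegfb, Rpl12, Ubl5, Pcsk1n, Rplp1 and Cox4i1. Of those named, only Apoe, a lipid carrier of astrocytes that activated microglia also make, is on any of the lists compared here. Rps2, Rpl12 and Rplp1 encode ribosomal proteins and Cox4i1 a subunit of the respiratory chain. Between the 2 regions of a mouse the 32 genes showed little relation over 19 mice: r had a median of 0.04 (-0.60 to 0.56), was above 0 for 20 of the 32, and passed for none (permutation test, Benjamini-Hochberg over 32).

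Ligands and partners of these genes were called between the regions in both directions, at shares no higher than those of all genes tested. Of 28 such genes 24 were tested in Lmo4gt/+ mice, where 5 were higher and 6 lower in NAc (26.2% and 26.4% of all genes tested), and 23 in WT mice, where 5 were higher and 5 lower (31.1% and 28.5%). Il34, a ligand of CSF1R made by forebrain neurons, was lower in WT NAc (-0.55 ± 0.06, edgeR adjusted p = 3.42e-07). C4b, the complement component cleaved after C1q activation, was higher in NAc, at 1.25 ± 0.13 in Lmo4gt/+ mice (adjusted p = 2.43e-06) and 1.73 ± 0.09 in WT mice (3.61e-10). Cd47, the signal against engulfment, was higher as well (0.53 ± 0.08, 3.16e-05, and 0.42 ± 0.05, 2.44e-06), and its receptor Sirpa was lower in Lmo4gt/+ NAc (-0.45 ± 0.06, 1.25e-05). Il34 and Sirpa are each given for a single genotype by the rule for naming genes. The test of genotype by region called neither of them (0.17 ± 0.11 for Il34 and -0.12 ± 0.07 for Sirpa, log2). Mef2c, a transcription factor of microglia and of excitatory neurons, was lower in NAc, at -1.62 ± 0.14 (6.51e-07) and -1.71 ± 0.11 (5.67e-08). None of the 28 was called with genotype in either region.

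Among 38 further genes named for microglia, 36 were tested, and 5 were higher and 4 lower in NAc in Lmo4gt/+ mice, 9 higher and 4 lower in WT mice (26.2% and 26.4% of all genes tested in Lmo4gt/+ mice, 31.1% and 28.5% in WT mice). The lysosomal protease Ctsz (1.09 ± 0.10 in Lmo4gt/+ and 1.11 ± 0.07 in WT mice, edgeR adjusted p of 3.48e-07 and 6.94e-10) and Rgs10, a regulator of G protein signalling (1.08 ± 0.12 and 0.98 ± 0.10, 3.46e-06 and 2.76e-07), were higher, and the adaptor Blnk was lower (-2.23 ± 0.34 and -2.14 ± 0.25, 6.93e-05 and 4.94e-06). Of 21 genes of activated microglia 9 were tested, and 3 were higher and 2 lower in Lmo4gt/+ mice, 4 higher and 2 lower in WT mice, against the same shares. Cd9, a tetraspanin also found in myelinating cells, was higher in NAc (0.66 ± 0.13 and 0.97 ± 0.07, 0.000411 and 9.06e-09), and Igf1 (-1.97 ± 0.14 and -1.84 ± 0.16, 1.54e-08 and 4.25e-08) and Gpnmb (-2.28 ± 0.34 and -1.55 ± 0.20, 4.35e-05 and 5.34e-06) were lower. Several of these genes are also expressed by neurons or oligodendrocytes, whose markers differed between the regions as given above, and the part of those cells was not tested. With genotype, none of the 38 and none of the 21 was called in either region.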

How the data were processed

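RNA was read in 39 libraries of 20 mice. The deposited files hold counts of reads per Ensembl gene, unnormalised; HISAT2, HTSeq 0.11.1, MultiQC 1.7, DESeq2 and the build mm9 are named per the submitters' processing notes, with no role or order. Reads not assigned to a gene (24.74% to 38.06% per library), among them reads not aligned uniquely, were left out. Names, coordinates and exon lengths came from GENCODE vM1 (NCBIM37, which is mm9), matched without versions: 32708 of 51826 identifiers were named.

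Counts were tested with edgeR 4.0.16 in R 4.3.3 (TMM; genes kept by filterByExpr, minimum count 10; glmQLFit, robust; two-sided; Benjamini-Hochberg at 0.05 over all genes tested), with DESeq2 1.42.0 as an alternative. All 32 genes passed the filter in every comparison. Errors of log2 fold changes are SEs. Genotype was compared within each region. Region and its interaction with genotype kept the mouse as a block, since libraries of both regions carry the same mouse number in their titles; over the 32 genes, levels of the same mouse had a median r of 0.04. Correlations used log2 TMM CPM with a prior count of 2 (SciPy 1.17.1, Python 3.11.15).

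The fits were tested on simulated data with known changes. Intervals are at the 95% level. No libraries held identical counts.

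The members, gene lists and tests were chosen with earlier results of these data known. Named genes were those called, the 5 smallest p where under 5 were called, the 10 genes outside the list closest to its mean, and up to 4 genes per list by smallest p; exceptions are said. Bin2 and Drd1 had no match. 1 gene that the rule names is not reported here. Protein sequences were not used here. Alternatives are in the closing section.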

Additional observations from a re-analysis of the deposited data

Results flagged for a closer look

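Of 96 groups of 9 or 10 libraries examined gene by gene, 12 held a library far from the rest of its group (12.5%). About 1 in 20 is given by chance for a single group. Flags that share a library are not independent, and the share over all genes was not taken, so no excess is read from this count. WT BLA, with 11 libraries, was not examined in this way. There Ptprc was highest in the library of mouse 139 (50.3 CPM, the others 21.7 to 31.6). Ly86 was highest in that of mouse 148 (5.82 CPM, the others 2.36 to 4.07).

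In Lmo4gt/+ NAc, the library of mouse 149 gave 4 of these. It was highest for Cx3cr1 (69.9 CPM, the others 38.9 to 49.8) and Csf1r (108 CPM, the others 72.1 to 89.6), and lowest for Aif1, the calcium-binding protein known as IBA1 (0.633 CPM, the others 2 to 3.01), and Cyth4 (3.53 CPM, the others 7.18 to 10.1). This library also had the fewest gene reads of the series. In the same group, the library of mouse 159 was highest for P2ry12 (28.4 CPM, the others 14.8 to 19.8), its neighbour P2ry13 (10.1 CPM, the others 5.97 to 7.72) and Fcrls (18.6 CPM, the others 11.3 to 14.9), and that of mouse 147 was lowest for Irf8 (2.45 CPM, the others 3.99 to 5.54).

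In WT NAc, the library of mouse 129 was highest for C1qa (26.3 CPM, the others 14 to 20.3) and Ctss (42.1 CPM, the others 25.9 to 32.6). In Lmo4gt/+ BLA, the library of mouse 138 was highest for Ly86, the MD-1 partner of a Toll-like receptor homologue (4.27 CPM, the others 2.39 to 3.32), and that of mouse 147 was lowest for Cyth4 (4.84 CPM, the others 7.32 to 9.27).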

How the results depend on the processing

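No gene picked for a comparison by its call or small p changed direction there under an alternative, nor did any called pair. Some others did. In Lmo4gt/+ mice the region values of C1qa and C1qc (both -0.02) were 0.14 and 0.13 without mouse 149. In the NAc, Tyrobp with Fcer1g (r = 0.47) had -0.09 and Csf1r with Csf3r (0.11) -0.2 without NAc 129 and 149. Without the 2 farthest libraries, P2ry12 with P2ry13 (0.34) had -0.19 and Spi1 with Irf8 (0.12) -0.21. Of the recomputed counts and medians, 119 moved by under 1.5 times or by less than the spread between libraries, while 12 moved by more. Medians over the 32 genes lay near 0 and could change sign: the BLA genotype median (0.02) was -0.02 without BLA 129, 149, 156 and 159 and -0.01 without mouse 139, the Lmo4gt/+ region median (0.02) was -0.03 without mice 122, 127, 149 and 159 and 0.11 without mouse 149, and the genotype by region median (-0.07) was 0.02 without mice 122, 127, 129, 134, 149, 156 and 159. Cd68 (0.72 to 0.95 log2 in Lmo4gt/+ and 0.79 to 0.82 in WT mice) and Ptprc (-2.68 to -2.46 and -2.83 to -2.76) kept their calls under all 6 alternatives run for each. Without the replicate block the Lmo4gt/+ region comparison called 1 higher and 2 lower and the WT one 7 higher and 1 lower, and no call of the 32 genes changed. In Lmo4gt/+ mice 1 was lower with no filter, and 4 without mice 122, 127, 149 and 159 (Ptprc, Fcrls, Fcgr3 and P2ry12). In WT mice 2 were lower with DESeq2 size factors (Ptprc and Itgam; Laptm5 lost its call), 4 were higher with no filter on low counts, Inpp5d and Laptm5 did not pass with DESeq2, and 3 were higher without mice 129, 134 and 156; without mouse 129, chosen after seeing the data, 2 were higher and 2 lower. With genotype, DESeq2 and the fit with no filter each called 2 genes in the BLA and 2 in the NAc, none of the 32. Of 7 gene pairs called, 2 remained without NAc 129 and 149, left out after seeing the data. The NAc C1q pairs kept their calls by r in the planned setting without NAc 122, 134 and 149 and BLA 127, 129, 149, 156 and 159. The cause of these changes was not tested. Depth limits the rarest genes: Aif1 and Tyrobp had as few as 12 reads each in a library.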
